A study of Mus musculus with 53 samples.

Results

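Genes of the cell cycle and of DNA replication were followed across 53 RNA-seq libraries of mouse intestine in 11 groups. The set holds 39 of the 55421 gene rows of the count table. Its members are known S-phase or mitotic genes, matched by symbol, and the set was drawn up with earlier results of these data known. The 18 S-phase members are Mcm2, Mcm3, Mcm4, Mcm5, Mcm6, Mcm7, Pcna, Rrm1, Rrm2, Tyms, Cdc6, Cdt1, Gins2, Cdc45, E2f1, Chek1, Ccne1 and Ccne2. The 21 mitotic members are Mki67, Top2a, Ccna2, Ccnb1, Ccnb2, Cdk1, Aurka, Aurkb, Bub1, Bub1b, Plk1, Cdc20, Birc5, Kif11, Kif20a, Kif23, Cenpe, Cenpf, Nusap1, Tpx2 and Ube2c. Each group was set against WT tissue of its own site and stage.

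The study compared tumours and early intestinal tissue of mice in which recombination was induced in the gut epithelium with tamoxifen. Every mouse, WT included, carried VilCreER, a Cre recombinase driven by the villin promoter and active in intestinal epithelium after tamoxifen. Whole tissue or whole tumours were sequenced, so fewer dividing cells and less of an RNA in each cell cannot be told apart. The groups of the small intestine were APCfl/fl at day 4 after induction (n = 10), WT at day 4 (n = 6), primary tumours of Apcfl/+ mice (adenomas, n = 5) and WT tissue with no day given (n = 3). The groups of the proximal colon were primary tumours of BA mice (n = 4) and WT tissue with no day given (n = 3). BA mice carry 1 activated Braf allele and homozygous floxed Alk5 alleles, where Alk5 is the TGFβ receptor gene Tgfbr1. At day 30 after induction the proximal colon was taken from untreated BA mice (n = 5), BA mice given antibiotics (n = 5), untreated A mice (n = 4), A mice given sulindac (n = 4) and WT mice (n = 4). A mice carry homozygous floxed Alk5 alleles without the activated Braf allele. The antibiotic mixture was ampicillin at 1 g/L, neomycin at 1 g/L, vancomycin at 500 mg/L and metronidazole at 1 g/L in the drinking water, starting 1 day after tamoxifen. Sulindac, a non-steroidal anti-inflammatory drug, was given at 0.4 g/L in the drinking water for 14 days from the same time, after which it was stopped. The WT small intestine without a day and the Apcfl/+ tumours were from inbred C57BL6/J mice, and all other groups were from a mixed C57BL/6J background. The labels give neither the age of a mouse nor whether libraries of 1 group came from separate litters, so p-values measure the spread between these libraries.

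In a dividing cell the Mcm proteins form the helicase that opens DNA, Cdc6 and Cdt1 load it in G1, and Cdc45 and the GINS complex, which holds Gins2, activate it in S phase. Ribonucleotide reductase (Rrm1 and Rrm2) and thymidylate synthase (Tyms) supply the nucleotides, Pcna clamps the polymerase to DNA, and E2F factors switch most of these genes on at the G1 to S boundary, where Ccne1 and Ccne2 are the cyclins. Mitotic genes are transcribed later, in G2, through complexes of MuvB, B-Myb and FoxM1 that recognise the CHR element. Within the intestinal epithelium both programmes are normally confined to cells of the crypts.

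The promoters of 4 members are shown because they carry the sequence words by which S-phase and mitotic genes are usually told apart. Each is 200 bases upstream of a RefSeq transcript start on GRCm38.p6, in the direction of transcription. Capitals mark an E2F core (the word TTCCCGC, the word TTCGCGC, the word TTGCCGC or the word TTGGCGC, on either strand) or a CHR word (the word TTTGAA or the word TTCGAA, on either strand). Mcm5 and Mcm6 encode helicase subunits, Mki67 encodes a coat protein of mitotic chromosomes, and Cdk1 encodes the kinase that starts mitosis.
Mcm5 (chr8:75109309-75109508, plus strand): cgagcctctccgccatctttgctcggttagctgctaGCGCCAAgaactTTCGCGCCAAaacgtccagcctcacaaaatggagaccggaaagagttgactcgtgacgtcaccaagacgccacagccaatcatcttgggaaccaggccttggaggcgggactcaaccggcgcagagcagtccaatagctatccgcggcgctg
Mcm6 (chr1:128359706-128359905, minus strand): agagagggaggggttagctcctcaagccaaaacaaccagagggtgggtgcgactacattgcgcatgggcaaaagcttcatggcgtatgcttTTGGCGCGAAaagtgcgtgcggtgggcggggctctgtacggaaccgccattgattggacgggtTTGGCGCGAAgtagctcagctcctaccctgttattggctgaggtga
Mki67 (chr7:135716380-135716579, minus strand): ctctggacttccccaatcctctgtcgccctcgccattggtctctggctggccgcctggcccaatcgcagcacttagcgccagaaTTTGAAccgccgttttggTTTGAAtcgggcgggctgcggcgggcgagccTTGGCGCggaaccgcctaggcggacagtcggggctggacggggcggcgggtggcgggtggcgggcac
Cdk1 (chr10:69352913-69353112, minus strand): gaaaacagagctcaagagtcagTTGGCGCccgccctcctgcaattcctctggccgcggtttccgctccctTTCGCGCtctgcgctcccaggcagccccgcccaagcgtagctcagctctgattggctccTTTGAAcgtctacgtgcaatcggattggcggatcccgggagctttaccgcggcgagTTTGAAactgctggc

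The Mcm5 and Mcm6 stretches hold E2F cores and no CHR word. The Mki67 and Cdk1 stretches hold CHR words together with E2F cores. A promoter of 300 bases, from 250 before to 50 after the start, was found in RefSeq for 32 of the 39 members. Those without one were Mcm4, Gins2, Ccne2, Ccna2, Aurkb, Kif20a and Tpx2. Shares are of genes, and Mcm7 has more than 1 promoter. An E2F core lay in a promoter of 9 of 15 S-phase genes (60.0%) and of 3 of 17 mitotic genes (17.6%), against 10.9% of all 27025 genes with a promoter. A CHR word lay in a promoter of 3 of 15 S-phase genes (20%) and of 13 of 17 mitotic genes (76.5%), against 21.7% of all genes. The box CCAAT, on either strand, lay in a promoter of 9 of 15 S-phase genes (60.0%) and of 15 of 17 mitotic genes (88.2%), against 41.1% of all genes. E2F words can overlap each other and the reverse of CCAAT, and a match is a match of letters only.

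Library totals ran from 516985 counts in APCfl/fl 1 to 32824795, and the next lowest total was 10005066. All 39 members passed the low-count filter in each comparison. None of 120 pairs of libraries within a group held identical values. Over the whole gene, Apc lay between 64.4 and 111 CPM in WT day 4 and between 36.5 and 147 in APCfl/fl, so whole-gene counts gave no check of the deletion. The same held for Alk5 (Tgfbr1), at 34.7 to 65.2 CPM in WT day 30, 33.5 to 59.8 in untreated A and 42.0 to 58.2 in untreated BA tissue. In BA tumours it lay between 91.5 and 172 CPM, and in WT proximal colon between 49.4 and 55.9. The predicted gene Gm13394 was over 10 CPM in 6 of 10 APCfl/fl and 3 of 6 WT day 4 libraries, in all treated and untreated BA and A day 30 libraries but 0 of 4 WT day 30, in 3 of 3 WT small intestine but 0 of 5 Apcfl/+ tumours, and in 3 of 4 BA tumours but 0 of 3 WT proximal colon. In the day 30 comparisons with WT and that of Apcfl/+ tumours the split of Gm13394 and the genotype cannot be told apart, in that of BA tumours they part in 1 tumour only, and the differences between comparisons rest on these groups. The Y-linked Ddx3y was over 10 CPM in 3 of 4 BA tumours and 0 of 3 WT proximal colon, and in 3 of 3 WT small intestine and 1 of 5 Apcfl/+ tumours. The libraries thus mix the sexes unequally there, and its part in the results was not tested. B cell genes were high in APCfl/fl 8, WT day 4 4 and WT small intestine 1.

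Levels below are normalised CPM, counts scaled to the size of each library with TMM factors over all 53 libraries. Fold changes come from edgeR fits of each pair of groups, with p-values adjusted over all genes tested by the Benjamini-Hochberg method and a threshold of 0.05. Per kilobase of exon, Pcna was the highest member in APCfl/fl tissue at a mean of 66.3 RPKM, followed by the B-type cyclin Ccnb2 at 47.2 RPKM and the helicase subunit Mcm6 at 43.3 RPKM. The kinetochore gene Cenpf was the lowest member there, at 3.11 RPKM. In BA tumours Pcna was again highest, at 26.6 RPKM, and the checkpoint kinase Chek1 lowest, at 0.877 RPKM. Of the 39 members, 35 had their highest group mean in APCfl/fl tissue. Mean log2 CPM over the S-phase members ran from 5.58 to 6.44 in APCfl/fl libraries and from 3.97 to 4.42 in BA tumours, ranges that do not overlap. Those of the mitotic members ran from 5.43 to 6.48 and from 4.79 to 5.46, and overlapped through APCfl/fl 1, the shallowest library. The S-phase means lay below APCfl/fl in every other colon group too. Their highest values were 5.01 in WT proximal colon and 5.31 in sulindac-treated A tissue, the highest colon group. The separation was thus not particular to BA tumours.

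**Figure D1:**
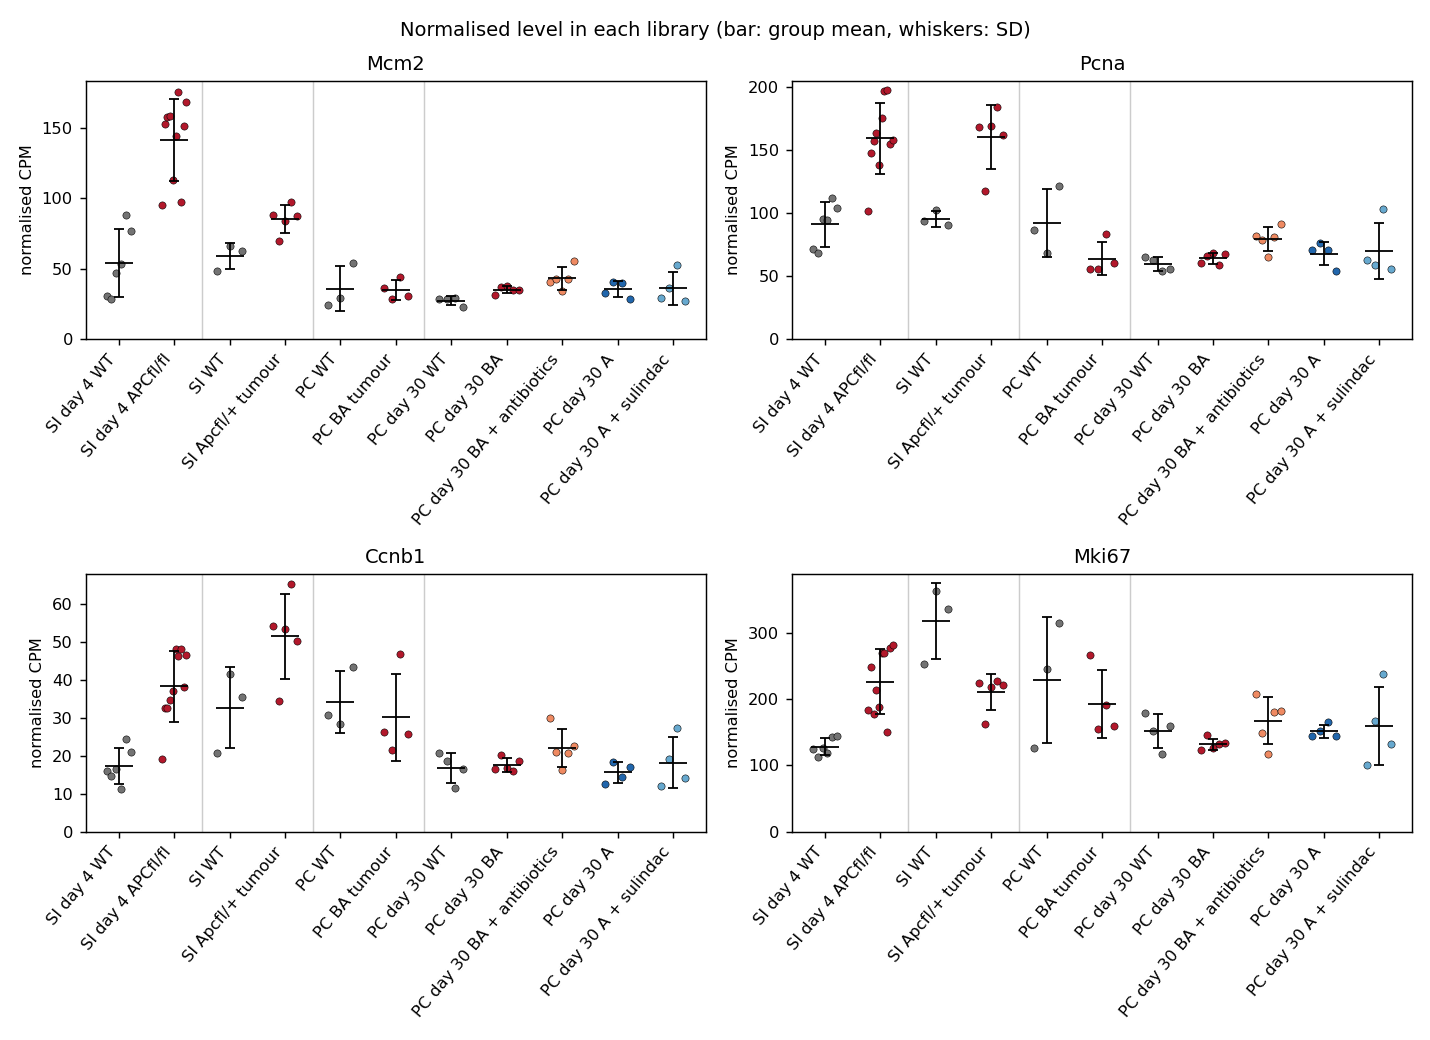
Normalised CPM (vertical axis) of Mki67, Ccnb1, Mcm2 and Pcna in each library of the 11 groups (horizontal axis), with bars at the group mean and whiskers of 1 SD. Mcm2 lay between 95.6 and 176 in the 10 APCfl/fl libraries and at or under 88.4 in the 6 WT day 4 libraries, while Mki67 was lower in all 5 Apcfl/+ tumours than in the 3 WT small intestine libraries.

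**Figure D2:**
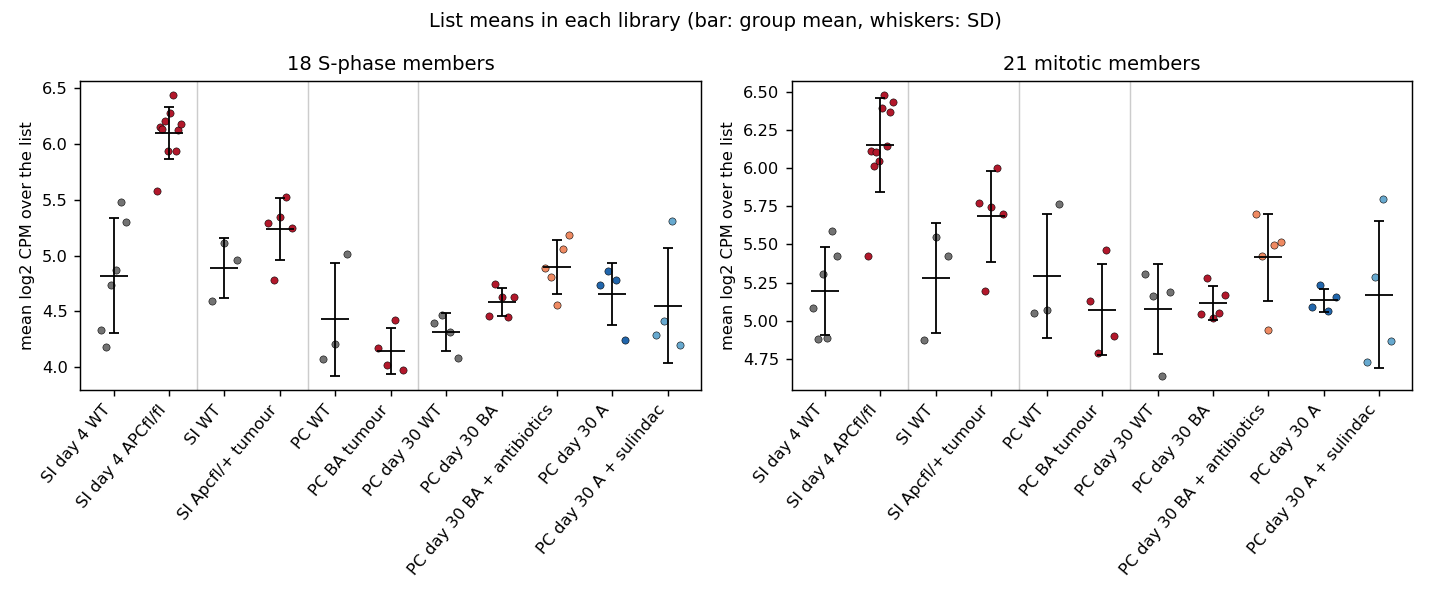
Mean log2 CPM over the 18 S-phase members and over the 21 mitotic members (vertical axes) in each library of the 11 groups (horizontal axis), with bars at the group mean and whiskers of 1 SD. The S-phase means ran from 5.58 to 6.44 in APCfl/fl, from 4.18 to 5.48 in WT day 4 and from 3.97 to 4.42 in BA tumours. In WT proximal colon they ran from 4.08 to 5.01.

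The first comparison asked how the cycle genes stood 4 days after loss of Apc, the negative regulator of Wnt signalling. All 39 members rose in APCfl/fl small intestine, 18 S-phase and 21 mitotic, where 27.5% of all genes tested were higher and 26.7% lower. The median log2 fold change was 1.33 over the S-phase members and 0.99 over the mitotic members, beside 0.00 over all genes tested. Members ranged from 1.48 ± 0.21 (SE) for the helicase gene Mcm4 to 0.70 ± 0.18 for Ccne2 among S-phase genes, and from 1.26 ± 0.18 for Cdk1 to 0.63 ± 0.16 for the midbody kinesin Kif23 among mitotic genes.

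Lowest, median and highest levels of Mcm2 were 28.1, 49.9 and 88.4 CPM in WT and 95.6, 152 and 176 CPM in APCfl/fl mice (log2 fold change 1.40 ± 0.23 (SE), adjusted p = 8.2e-05). The 2 groups did not overlap for this helicase subunit. For the polymerase clamp Pcna they were 68.5, 94.9 and 112 CPM in WT and 102, 158 and 197 CPM in APCfl/fl (log2 fold change 0.84 ± 0.15 (SE), adjusted p = 0.00017), and here the groups overlapped. Ccnb1, the cyclin partner of Cdk1, had 11.3, 16.3 and 24.5 CPM in WT and 19.1, 37.6 and 48.2 CPM in APCfl/fl (log2 fold change 1.18 ± 0.19 (SE), adjusted p = 5.8e-05). The proliferation marker Mki67 had 112, 125 and 144 CPM in WT and 149.6, 231 and 282 CPM in APCfl/fl (log2 fold change 0.83 ± 0.13 (SE), adjusted p = 5.5e-05). All 10 APCfl/fl libraries lay above all 6 WT libraries for Mki67, and the lowest APCfl/fl value of Ccnb1 fell within the WT range. Cdk1 had 31.6, 41.5 and 61.6 CPM in WT and 78.0, 101 and 150.0 CPM in APCfl/fl (log2 fold change 1.26 ± 0.18 (SE), adjusted p = 2.7e-05). Mcm4 had 27.4, 41.7 and 69.1 CPM in WT and 65.3, 136 and 158 CPM in APCfl/fl (log2 fold change 1.48 ± 0.21 (SE), adjusted p = 2e-05). For Cdk1 the groups did not overlap, and for Mcm4 the lowest APCfl/fl library fell below the highest WT library. The smallest changes were those of Ccne2, with 7.78, 13.0 and 14.9 CPM in WT and 11.8, 19.4 and 31.6 CPM in APCfl/fl (adjusted p = 0.0039), and of Kif23, with 28.8, 36.6 and 44.3 CPM in WT and 33.4, 54.2 and 75.9 CPM in APCfl/fl (adjusted p = 0.0031). In all, the groups did not overlap for 15 of the 39 members, 8 S-phase and 7 mitotic, against 6.54% of all genes tested.

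The other machinery moved in the same direction. Of 20 further replication genes 19 rose, led by the origin recognition subunit Orc1 (1.81 ± 0.27) and the GINS subunit Gins1 (1.61 ± 0.22). Of 25 further mitosis genes 24 rose, led by the cytokinesis gene Ect2 (1.46 ± 0.18), and the securin gene Pttg1 had 0.38 ± 0.29 (adjusted p = 0.28). Of 6 G1 cyclins and kinases 5 rose, among them Cdk6 (1.46 ± 0.17), Cdk4 (1.36 ± 0.23), Ccnd1 (1.32 ± 0.30) and Ccnd2 (1.11 ± 0.20). Of 6 CDK inhibitors tested none rose, and Cdkn2b (-2.25 ± 0.25) and Cdkn1b (-0.45 ± 0.10) fell. Cdkn2b, which encodes an inhibitor of Cdk4 and Cdk6, had 59.0, 67.3 and 96.3 CPM as lowest, median and highest in WT and 7.44, 13.6 and 28.2 CPM in APCfl/fl, without overlap. Of 10 pocket proteins and E2F genes 4 rose and 3 fell, among the latter Rb1 (-1.01 ± 0.14), the restrainer of E2F. Of 5 FoxM1 and B-Myb genes 3 rose, led by the B-Myb gene Mybl2 (1.74 ± 0.28). T cell markers moved as well, with 7 of 8 lower and a summed level of 86.5 to 119.9 CPM in WT and 24.2 to 62.7 CPM in APCfl/fl. Of 10 epithelial markers 1 was higher and 2 were lower, with sums of 11187 to 13587 and 8449 to 11179.7 CPM. Fibroblast markers gave 3 lower of 10 (1652 to 2818 and 531 to 2863 CPM) and myeloid markers 3 lower of 8 (424 to 533 and 183 to 582 CPM). Their part in the result was not tested.

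Day 4 libraries differed in the balance of the 2 programmes. Within WT, the S-phase mean minus the mitotic mean ran from -0.75 to -0.57 in WT 1 to 3, which had up to 10 CPM of Gm13394, and from -0.12 to -0.02 in WT 4 to 6, which had over 10 CPM. Within APCfl/fl the order was the other way, from 0.04 to 0.16 in libraries 1 to 4 of up to 10 CPM and from -0.26 to -0.04 in libraries 5 to 10 of over 10 CPM. Fitted within the libraries of up to 10 CPM, all 39 members rose, where 28.7% of all genes tested were higher, with medians of 1.81 over the S-phase and 0.97 over the mitotic members. Fitted within those of over 10 CPM, 36 of 39 rose, 17 S-phase and 19 mitotic, where 13.6% of all genes were higher, with medians of 0.96 and 0.98. The difference between the sides was not tested. These splits were chosen after the data were seen. The labels name no batch that matches this split. Without APCfl/fl 1 and the libraries high in B cell genes all 39 members again rose.

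**Figure D3:**
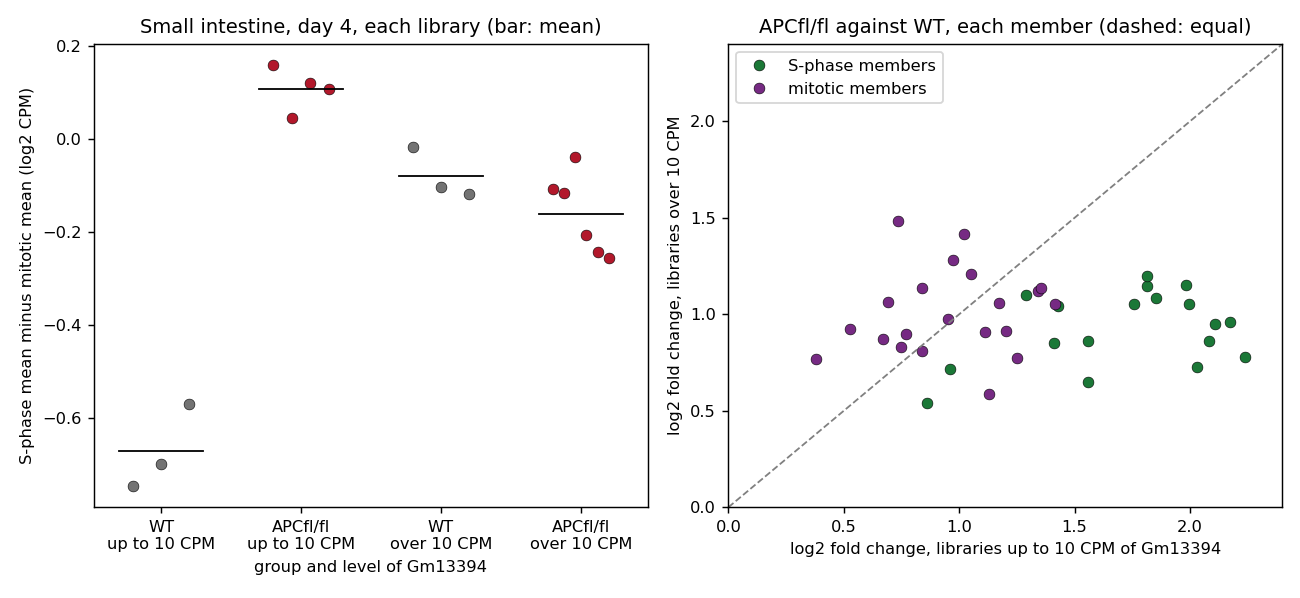
Left, S-phase mean minus mitotic mean (log2 CPM, vertical axis) in each day 4 library by genotype and by the level of Gm13394 (horizontal axis), with bars at the mean. Right, log2 fold change of each member, APCfl/fl against WT, in libraries of up to 10 CPM of Gm13394 (horizontal axis) and of over 10 CPM (vertical axis), where the dashed line marks equal changes, the median S-phase member stood at 1.81 and 0.96 and the median mitotic member at 0.97 and 0.98.

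Apcfl/+ tumours, small intestinal adenomas, were compared with WT small intestine. Of the 39 members 16 were higher and 1 lower, where 31.4% of all genes tested were higher and 61.5% were called in either direction, but with libraries scaled to 10 epithelial markers, which moved the median of all genes to -0.41, only the lower call was left. The 7 higher S-phase members were Mcm2, Mcm4, Mcm6, Mcm7, Pcna, Rrm1 and Gins2. The 9 higher mitotic members were Ccnb1, Ccnb2, Cdk1, Bub1b, Plk1, Cdc20, Kif20a, Nusap1 and Tpx2. Mki67 was lower. The median log2 fold change was 0.43 over the S-phase and 0.51 over the mitotic members, beside 0.03 over all genes tested, and with the epithelial scaling -0.08 and -0.01. The share of members called higher, 16 of 39, was close to that of all genes.

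In the 3 WT libraries Mcm2 stood at 48.7, 66.1 and 62.4 CPM, and in the 5 tumours at 88.4, 69.7, 83.7, 97.6 and 87.5 CPM (log2 fold change 0.63 ± 0.14 (SE), adjusted p = 0.0044). Every tumour lay above every WT library. Pcna stood at 93.6, 102 and 90.2 CPM in WT and 169, 118, 169, 184 and 162 CPM in tumours (log2 fold change 0.85 ± 0.15 (SE), adjusted p = 0.0013), without overlap. Ccnb1 stood at 20.9, 41.7 and 35.6 CPM in WT and 54.3, 34.3, 53.5, 65.3 and 50.3 CPM in tumours (log2 fold change 0.76 ± 0.26 (SE), adjusted p = 0.031). Tumour 2 lay within the WT range for Ccnb1. Mki67 ran the other way, at 253, 363 and 336 CPM in WT and 225, 162, 218, 227 and 221 CPM in tumours (log2 fold change -0.49 ± 0.16 (SE), adjusted p = 0.026), without overlap. The largest mitotic change was that of the spindle assembly factor Tpx2, at 18.9, 30.31 and 29.4 CPM in WT and 50.4, 36.9, 49.5, 61.4 and 49.6 CPM in tumours (log2 fold change 1.02 ± 0.21 (SE), adjusted p = 0.0027). The largest S-phase change was that of Gins2, at 5.10, 7.97 and 6.58 CPM in WT and 11.7, 8.16, 11.3, 14.6 and 10.2 CPM in tumours (log2 fold change 0.87 ± 0.22 (SE), adjusted p = 0.0085). For both genes the tumours lay above WT. 67.3% of the exon bases of Gins2 also lie in Gse1 on the opposite strand, so its counts are uncertain. Smaller overlaps of other members are given with the processing below. The smallest S-phase change was that of Ccne2, at 19.4, 18.1 and 19.9 CPM in WT and 14.1, 13.4, 20.7, 20.6 and 16.9 CPM in tumours (log2 fold change -0.06 ± 0.17). The count of called members rose from 17 to 29 without tumour 2, which had the lowest mean of both lists, and fell to 12 at the least when any other library was left out.

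Among regulators in these tumours, Ccnd1 (1.21 ± 0.20) and Cdk4 (1.16 ± 0.13) rose, and Ccnd2 (-0.89 ± 0.24), Cdk6 (-0.41 ± 0.16) and Rb1 (-1.23 ± 0.12) fell. The CDK inhibitor genes Cdkn1c (3.10 ± 0.23) and Cdkn2a (5.23 ± 1.39) rose. Cdkn1c stood at 3.66, 2.73 and 3.61 CPM in WT and 28.9, 19.3, 24.0, 25.5 and 35.1 CPM in tumours, and Cdkn2a, which encodes p16 and p19Arf, at 0.103, 0.0557 and 0 CPM and 0.658, 5.94, 0.267, 0.973 and 2.56 CPM. Both were higher in every tumour, although Cdkn2a stayed under 1 CPM in 3 of the 5. Of the further genes, 6 of 20 for replication and 10 of 25 for mitosis rose. Markers of other cells moved with the genotype, with 7 of 8 neutrophil markers higher (sums of 8.91 to 12.1 CPM in WT and 54.4 to 282 CPM in tumours), 5 of 8 T cell markers lower (49.6 to 65.7 and 15.2 to 20.1 CPM), 5 of 10 fibroblast markers higher and 2 lower (1729.6 to 2119 and 3118 to 3921 CPM, without overlap), 3 of 8 smooth muscle markers lower (914 to 1656 and 483 to 988 CPM), 4 of 7 tested B cell markers lower (19.2 to 239 and 14.6 to 20.7 CPM) and 5 of 10 epithelial markers higher (7889 to 9129 and 7364 to 13040.5 CPM). No marker was at 0 in all libraries of a group. Their part in the result was not tested.

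Whether the response to homozygous loss at day 4 differed from that in Apcfl/+ tumours was tested with an interaction term. The day 4 change was the larger for 10 S-phase and 5 mitotic members, where 12.3% of all genes tested were called in this direction, and the smaller for none, where 12.4% of all genes were. The median difference was 0.90 over the S-phase and 0.53 over the mitotic members on the log2 scale. Mki67 differed most (1.36 ± 0.23 (SE), adjusted p = 0.00022), followed by the kinetochore kinesin Cenpe (1.25 ± 0.30 (SE), adjusted p = 0.0046) and E2f1 (1.17 ± 0.26 (SE), adjusted p = 0.0024). Pcna rose in both, and its difference was 0.02 ± 0.23 (SE), adjusted p = 0.97. The count of 15 fell to 4 without WT small intestine 2 and to 6 without WT small intestine 3. It fell to 8 without tumour 2 or WT day 4 2, and to 9 without APCfl/fl 7 or without WT day 4 1, 3 or 4.

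BA tumours of the proximal colon were compared with WT proximal colon. None of the 39 members was higher and 1 was lower, where 7.46% of all genes tested were higher and 5.71% lower. The lower gene was Tyms, thymidylate synthase, at 29.0, 31.1 and 46.1 CPM in the 3 WT libraries and 23.2, 21.2, 22.4 and 16.04 CPM in the 4 tumours (log2 fold change -0.79 ± 0.22 (SE), adjusted p = 0.049). All tumours lay below all WT libraries. The median log2 fold change was -0.36 over the S-phase and -0.28 over the mitotic members, beside 0.03 over all genes tested, and without WT 3 both were 0.02. WT 3 was the highest of the 3 WT libraries for all 39 members, and without it Tyms was not called. It was likewise not called without WT 1, WT 2, tumour 1 or tumour 4.

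Mcm2 stood at 24.4, 28.8 and 54.1 CPM in WT and 36.03, 28.5, 44.2 and 30.54 CPM in tumours (log2 fold change -0.05 ± 0.30). Pcna stood at 86.3, 68.6 and 121 CPM in WT and 55.7, 55.8, 83.3 and 60.2 CPM in tumours (-0.55 ± 0.25). Tumour 3 lay within the WT range for Pcna and the other tumours below it. Ccnb1 stood at 30.7, 28.3 and 43.4 CPM in WT and 26.2, 21.5, 47.0 and 25.8 CPM in tumours (-0.19 ± 0.30), and Mki67 at 126, 245 and 315 CPM and 266, 154, 190.2 and 159.9 CPM (-0.27 ± 0.32). Both overlapped. The smallest mitotic value was that of Ccnb2, at 46.1, 40.7 and 66.5 CPM in WT and 21.6, 29.3, 37.9 and 24.7 CPM in tumours (-0.86 ± 0.27, adjusted p = 0.065). The largest was that of Cenpe, at 15.5, 24.7 and 32.8 CPM and 43.6, 22.3, 36.3 and 32.4 CPM (0.45 ± 0.29, adjusted p = 0.36). The largest S-phase value was that of E2f1, at 3.29, 4.00 and 7.00 CPM in WT and 4.87, 6.88, 4.42 and 3.69 CPM in tumours (0.04 ± 0.36).

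The further lists gave 2 lower genes of 20 for replication, among them the primase gene Prim1 (-1.01 ± 0.23), and 1 lower gene of 25 for mitosis, Pttg1 (-0.97 ± 0.23). Among regulators, Ccnd2 rose from 54.0, 100.4 and 68.3 CPM in WT to 294, 218, 219 and 312 CPM in tumours (log2 fold change 1.79 ± 0.27 (SE), adjusted p = 0.0047). Cdk6, a partner kinase of the D cyclins, rose from 41.4, 51.5 and 56.5 CPM to 96.9, 88.7, 67.1 and 126 CPM (log2 fold change 0.90 ± 0.23 (SE), adjusted p = 0.035). Cdkn2a rose from 0.0646, 0.0588 and 0.189 CPM to 2.89, 9.57, 6.12 and 7.61 CPM (log2 fold change 5.90 ± 0.66 (SE), adjusted p = 0.0019). For these 3 genes every tumour lay above every WT library. Ccnd1 had 1.16 ± 0.35 (adjusted p = 0.062), and of 10 pocket protein and E2F genes none was called. Cell type markers moved too, with 7 of 8 neutrophil markers higher (sums of 12.2 to 113 CPM in WT and 326 to 574 CPM in tumours), 8 of 8 B cell markers higher (5.54 to 7.88 and 36.3 to 66.6 CPM), 2 of 10 fibroblast markers higher and 1 lower (1978 to 3144 and 4896 to 5863 CPM, without overlap), 2 of 8 myeloid markers higher (448 to 498 and 641 to 2218 CPM) and 4 of 8 smooth muscle markers lower (2405 to 9544 and 1676 to 3464 CPM). Epithelial markers gave 1 higher gene of 10, with sums of 13451 to 16531 and 11224 to 17223 CPM. Their part in the result was not tested.

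The 2 kinds of tumour were set against each other through their own WT tissue. The change in BA tumours lay below that in Apcfl/+ tumours for 4 S-phase and 7 mitotic members, where 17.7% of all genes tested were called in this direction, and above it for none, where 21.9% were. The median difference was -0.72 over the S-phase and -0.89 over the mitotic members. Pcna (-1.37 ± 0.29 (SE), adjusted p = 0.0027) and Tyms (-1.13 ± 0.27 (SE), adjusted p = 0.0055) were among the former, and Ccnb2 (-1.48 ± 0.31 (SE), adjusted p = 0.0028), the spindle gene Nusap1 (-1.43 ± 0.30 (SE), adjusted p = 0.0026) and Cdk1 (-1.32 ± 0.36 (SE), adjusted p = 0.011) among the latter. Mki67 had 0.26 ± 0.37 (SE), adjusted p = 0.59. The count of 11 fell to 5 without WT proximal colon 3 or WT small intestine 1 and to 6 without WT small intestine 3. It rose to 24 without BA tumour 3, to 23 without Apcfl/+ tumour 2 and to 19 without WT proximal colon 2. The organ and the mouse background differ between these tumours, so neither can be told apart from genotype. Gm13394 and the Y-linked Ddx3y, described above, also lay in opposite directions in the 2 comparisons with WT, and their part was not tested.

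**Figure D4:**
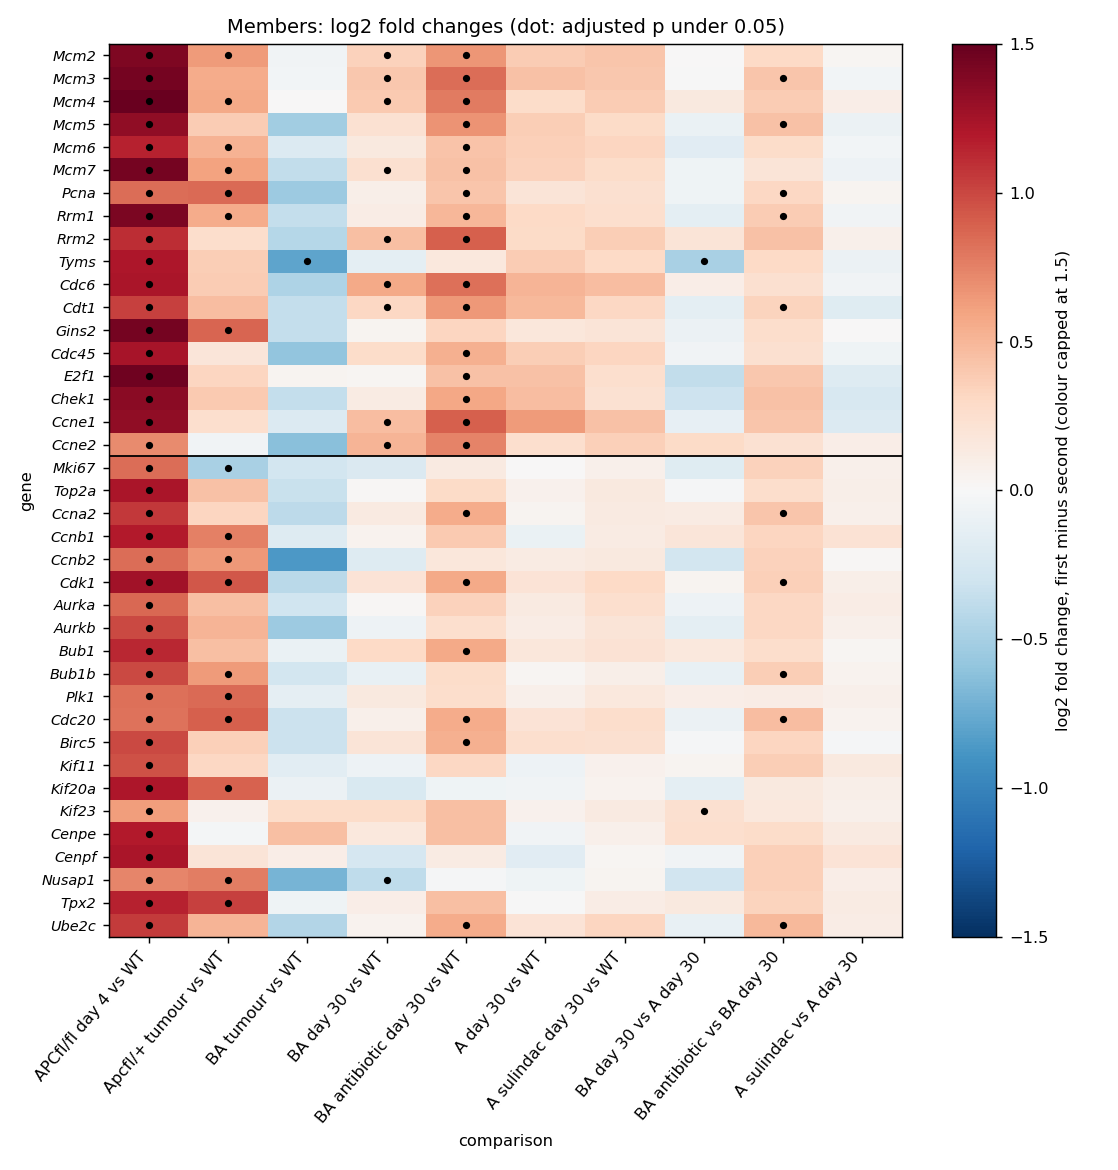
Log2 fold change of each of the 39 members (rows) in each comparison (columns), first group minus second, with the colour scale as labelled and a mark where the adjusted p was under 0.05. All 39 members were called in APCfl/fl, 17 in Apcfl/+ tumours, 1 in BA tumours, 10 in untreated and 22 in antibiotic-treated BA tissue and 0 in A tissue. With libraries scaled to epithelial markers the day 30 BA changes against WT turned negative and there was 1 call in Apcfl/+ tumours.

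In proximal colon of BA mice at day 30, before the tumour stage, 9 S-phase members were higher than in WT and 1 mitotic member was lower, where 25.8% of all genes tested were higher and 29.3% lower, but with libraries scaled to epithelial markers all 39 were called lower. The 9 were Mcm2, Mcm3, Mcm4, Mcm7, Rrm2, Cdc6, Cdt1, Ccne1 and Ccne2. As a share of the 39 members they were close to that of all genes called higher. Within the S-phase list they were 9 of 18, above that share, and of 21 mitotic members 0 were higher. The median log2 fold change was 0.26 over the S-phase and 0.05 over the mitotic members, beside -0.03 over all genes tested. With the epithelial scaling these medians were -0.73, -0.94 and -1.02, so both lists lay above all genes. The share of all genes called lower under that scaling is not given here. That scaling used the summed counts of 10 markers. In the main fit their log2 fold changes ran from 0.08 to 2.72, with a median of 0.73. With all 5 day 30 groups in 1 fit no member was called and the medians were 0.26 and 0.06.

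In the 4 WT libraries Mcm2 stood at 28.6, 28.5, 29.3 and 22.8 CPM, and in the 5 BA libraries at 31.2, 37.1, 37.8, 34.7 and 35.1 CPM (log2 fold change 0.35 ± 0.09 (SE), adjusted p = 0.0057). All BA libraries lay above all WT libraries. Cdc6, which loads the helicase on origins, stood at 5.61, 5.87, 7.98 and 4.05 CPM in WT and 7.96, 10.5, 8.78, 7.55 and 9.51 CPM in BA tissue (log2 fold change 0.57 ± 0.18 (SE), adjusted p = 0.02). WT 3 lay within the BA range for Cdc6. Pcna stood at 65.4, 62.9, 54.2 and 55.9 CPM and 60.1, 65.6, 67.9, 59.0 and 67.7 CPM (log2 fold change 0.09 ± 0.07), and Tyms, the smallest S-phase value, at 31.1, 32.7, 25.5 and 27.8 CPM and 25.6, 28.0, 29.2, 22.6 and 27.8 CPM (-0.15 ± 0.09). Among mitotic genes Nusap1 fell, from 34.1, 27.0, 20.8 and 32.1 CPM in WT to 19.4, 23.5, 19.1, 21.4 and 26.5 CPM in BA tissue (log2 fold change -0.38 ± 0.14 (SE), adjusted p = 0.035). WT 3 was the lowest WT library and lay within the BA range. Mki67 stood at 179, 152, 117 and 159.9 CPM in WT and 123, 145, 126, 132 and 133 CPM in BA tissue (-0.22 ± 0.10, adjusted p = 0.097). Ccnb1 stood at 20.6, 18.5, 11.5 and 16.6 CPM and 16.4, 20.3, 16.7, 15.9 and 18.6 CPM (0.05 ± 0.15). The largest mitotic value was that of the checkpoint kinase Bub1, at 13.5, 14.2, 9.48 and 11.5 CPM and 13.3, 16.5, 13.9, 15.5 and 16.2 CPM (0.30 ± 0.12, adjusted p = 0.061). There were 4 calls without WT 4 and 6 without BA 3. Without WT 3, 6 S-phase members were higher and 6 mitotic members lower, and the mitotic median was -0.10.

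The regulators at this stage gave a mixed picture. Mybl2 (0.76 ± 0.12), Orc1 (0.58 ± 0.13), the nucleotide enzyme Dut (0.64 ± 0.09) and Ccnd2 (0.49 ± 0.09) rose. The inhibitor genes Cdkn1a (0.53 ± 0.12) and Cdkn1c (0.91 ± 0.18) rose as well, and Cdk6 (-0.43 ± 0.07) and Cdkn1b (-0.23 ± 0.06) fell. Cdkn1a, which encodes p21, stood at 291, 279, 202 and 268 CPM in WT and 394, 350.0, 426, 307 and 414 CPM in BA tissue, without overlap. Further replication genes gave 6 higher of 20 and further mitosis genes 3 lower of 25. Epithelial markers were higher for 8 of 10, with sums of 12365 to 14760.4 CPM in WT and 24157 to 27668 CPM in BA tissue. Of 10 fibroblast markers 9 were lower (1857 to 2302 and 1294 to 1618 CPM), of 8 smooth muscle markers 6 (5413 to 6268 and 1071 to 4322 CPM) and of 8 T cell markers 4 (14.8 to 23.4 and 8.99 to 12.1 CPM). Of 3 neutrophil markers tested 1 was higher, and the sums over all 8 were 4.14 to 92.1 CPM in WT and 398 to 552 CPM in BA tissue, without overlap. The 3 tested markers had log2 fold changes from 0.50 to 10.8 with a median of 1.15, and the rest did not pass the low-count filter. Mean log2 CPM over all 8 ran from -1.75 to -0.16 in WT and from 0.54 to 1.10 in BA tissue. In BA tumours this mean ran from 2.62 to 3.94, while the sums there were 326 to 574 CPM. No marker was at 0 in all libraries of a group, and their part in the result was not tested.

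BA mice given antibiotics had 16 S-phase and 6 mitotic members higher than WT at day 30, where 21.8% of all genes tested were higher and 17.8% lower, but with the epithelial scaling, which moved the median of all genes to -0.97, 31 members were called lower, 10 S-phase and 21 mitotic. The S-phase members not called were Tyms and Gins2. The mitotic members called were Ccna2, Cdk1, Bub1, Cdc20, Birc5 and Ube2c. The median log2 fold change was 0.62 over the S-phase and 0.34 over the mitotic members, beside 0.01 over all genes tested. With the epithelial scaling the medians were -0.38 and -0.66, both above that of all genes. The share of all genes called lower under that scaling is not given here. In 1 fit of all 5 groups 17 members were called, 11 S-phase and 6 mitotic, and the share of all genes called in it is likewise not given.

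Against the WT values above, Mcm2 stood at 40.4, 42.8, 33.9, 42.6 and 55.7 CPM in the 5 antibiotic-treated libraries (log2 fold change 0.66 ± 0.13 (SE), adjusted p = 0.0026), all above WT. Pcna stood at 81.7, 78.8, 65.0, 80.7 and 91.4 CPM (log2 fold change 0.42 ± 0.09 (SE), adjusted p = 0.0045), with library 3 within the WT range. The largest S-phase change was that of Rrm2, the regulated subunit of ribonucleotide reductase, at 43.1, 52.6, 41.0 and 34.8 CPM in WT and 71.9, 81.8, 57.2, 98.1 and 91.2 CPM with antibiotics (log2 fold change 0.90 ± 0.16 (SE), adjusted p = 0.0013), and every treated library lay above WT. Tyms stood at 34.8, 33.9, 23.6, 36.6 and 34.4 CPM (0.16 ± 0.12, adjusted p = 0.32). Cdk1 had 51.0, 45.4, 33.1 and 42.0 CPM in WT and 71.1, 63.7, 46.4, 67.1 and 70.4 CPM with antibiotics (log2 fold change 0.57 ± 0.14 (SE), adjusted p = 0.0082). Bub1 had 21.9, 15.3, 12.1, 21.02 and 20.5 CPM (log2 fold change 0.57 ± 0.18 (SE), adjusted p = 0.03). Library 3 was the lowest of the 5 for both genes and lay within the WT range. Ccnb1 had 30.0, 21.002, 16.2, 20.7 and 22.6 CPM (0.39 ± 0.19, adjusted p = 0.13) and Mki67 208, 149, 117, 180.3 and 182 CPM (0.14 ± 0.16, adjusted p = 0.52). The smallest mitotic value was that of the kinesin Kif20a, at 23.3, 20.5, 13.9 and 19.9 CPM in WT and 21.3, 17.9, 13.6, 19.5 and 20.2 CPM with antibiotics (-0.07 ± 0.16). There were 13 calls without WT 3 or without treated library 5, and 14 without treated library 4. Epithelial markers were higher for 8 of 10, with sums of 20139.6 to 30371 CPM, and 5 of 8 T cell markers were lower (8.00 to 11.6 CPM). Of 4 B cell markers tested 2 were lower (6.18 to 17.4 CPM in WT and 2.90 to 11.1 CPM), and of 3 neutrophil markers tested 1 was higher (sums of 335 to 388 CPM). These 3 neutrophil markers had log2 fold changes from -0.23 to 10.5 with a median of 0.68. Over all 8, mean log2 CPM ran from 0.20 to 3.00 with antibiotics and from -1.75 to -0.16 in WT. The part of these cell types in the result was not tested.

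Set against untreated BA mice, the antibiotic group had 5 S-phase and 5 mitotic members higher and none lower, where 4.53% of all genes tested were higher and 8.5% lower. All 39 log2 fold changes were above 0, and 30 had an unadjusted p under 0.05, as had 30.8% of all genes tested. No marker of another cell type was called. All 10 fibroblast markers were above 0, with a median of 1.10, and 9 had an unadjusted p under 0.05. All 8 smooth muscle markers were above 0 as well (median 0.63), none with such a p. Of 8 markers each, 2 of T cells and 3 of myeloid cells were above 0. Of 3 tested markers each, 0 of B cells and 1 of neutrophils were above 0. The part of these cell types in the result was not tested. The median was 0.33 over the S-phase and 0.34 over the mitotic members, beside 0.03 over all genes tested, and the epithelial scaling gave 0.34 and 0.33. The called genes were Mcm3, Mcm5, Pcna, Rrm1, Cdt1, Ccna2, Cdk1, Bub1b, Cdc20 and Ube2c. Mcm5 had 46.5, 55.4, 49.7, 47.5 and 48.3 CPM in untreated and 67.3, 66.6, 47.6, 70.4 and 83.6 CPM in treated BA mice (log2 fold change 0.44 ± 0.11 (SE), adjusted p = 0.024). Ube2c, the ubiquitin-conjugating enzyme of the anaphase-promoting complex, had 44.2, 47.7, 43.9, 41.0 and 46.5 CPM and 76.0, 70.8, 41.0, 61.6 and 64.2 CPM (log2 fold change 0.49 ± 0.12 (SE), adjusted p = 0.024). In both genes treated library 3 fell among the untreated ones and the other 4 lay above them. Mcm2 had 0.29 ± 0.11 (adjusted p = 0.087), Pcna 0.31 ± 0.07 (0.017), Ccnb1 0.33 ± 0.13 (0.12) and Mki67 0.34 ± 0.12 (0.075). The largest S-phase value was that of Rrm2, at 47.2, 67.8, 66.6, 44.3 and 69.6 CPM in untreated mice (0.44 ± 0.16, adjusted p = 0.088). The smallest values were those of Mcm7, at 53.0, 60.8, 53.9, 49.5 and 53.2 CPM in untreated and 62.9, 62.5, 48.8, 63.7 and 71.2 CPM in treated mice (0.19 ± 0.08), and of the mitotic kinase Plk1, at 61.6, 70.6, 56.4, 60.6 and 59.6 CPM and 75.3, 65.9, 51.7, 75.3 and 64.1 CPM (0.11 ± 0.09). With all 5 groups in 1 fit no member was called, with medians of 0.32 and 0.33.

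The count of 10 depended on single libraries. It rose to 31 without treated library 3, the library with the highest sum of fibroblast markers (range of the group 1419 to 8902 CPM, untreated 1294 to 1618 CPM). It fell to 6, 5 and 3 without treated library 2, 4 or 5. It fell to 2, 3, 3 and 5 without untreated library 1, 3, 4 or 5. Outside the members, the antibiotic group had higher Cdk4 (log2 fold change 0.36 ± 0.05 (SE), adjusted p = 0.0012) and Cdkn1a (log2 fold change 0.53 ± 0.10 (SE), adjusted p = 0.0077) and lower Cdkn2b (log2 fold change -0.95 ± 0.15 (SE), adjusted p = 0.0031) than untreated BA mice. Cdkn2b stood at 39.6, 49.2, 35.9, 66.5 and 40.0 CPM in untreated and 25.6, 27.4, 20.9, 23.3 and 22.7 CPM in treated mice, without overlap. Of the further lists, 6 of 20 replication genes and 5 of 25 mitosis genes were higher.

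In A mice, which lack the activated Braf allele, no member was called against WT at day 30, where 0.096% of all genes tested were higher and 0.0452% lower in edgeR. DESeq2 called none as well. An unadjusted p under 0.05 was found for 10 S-phase members and 0 of 21 mitotic members, against 9.69% of all genes tested. All 18 S-phase log2 fold changes were above 0, with a median of 0.37 (0.25 with the epithelial scaling), and the mitotic median was 0.06 (-0.05 with that scaling). Mcm2 stood at 32.7, 40.7, 39.6 and 28.7 CPM, Pcna at 70.7, 75.8, 70.6 and 54.2 CPM, Ccnb1 at 12.4, 18.3, 14.5 and 17.1 CPM and Mki67 at 144, 152, 165 and 145 CPM. A 4 was the lowest A library for the first 2 genes. The largest S-phase value was that of Ccne1, at 7.28, 8.28, 7.09 and 5.11 CPM in WT and 13.3, 11.9, 11.7 and 6.02 CPM in A tissue (log2 fold change 0.64 ± 0.25 (SE), adjusted p = 0.5), and the smallest that of Gins2, at 11.6, 10.5, 8.80 and 6.12 CPM in A tissue (0.17 ± 0.21). Among mitotic genes the range ran from Cenpf, at 33.6, 25.1, 21.7 and 36.8 CPM in WT and 21.9, 25.4, 29.1 and 27.1 CPM in A tissue (-0.17 ± 0.18), to the survivin gene Birc5, at 39.4, 40.9, 26.5 and 39.2 CPM and 60.0, 43.9, 34.4 and 34.7 CPM (0.25 ± 0.20). Both overlapped between the groups.

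A mice given sulindac gave no called member against WT, where 0.0507% of all genes tested were higher and 0% lower, with medians of 0.31 over the S-phase and 0.14 over the mitotic members. Without sulindac library 3 these medians were -0.02 and -0.12. Mcm2 stood at 29.0, 36.1, 52.5 and 26.8 CPM, Pcna at 62.3, 58.9, 103 and 55.3 CPM, Ccnb1 at 12.1, 19.2, 27.3 and 14.0 CPM and Mki67 at 101, 167, 238 and 133 CPM. Library 3 was the highest for each of the 4 genes. The largest S-phase value was that of Cdc6, at 6.41, 7.79, 12.3 and 5.66 CPM (0.46 ± 0.28), and the smallest that of Gins2, at 8.84, 9.85, 7.51 and 6.89 CPM in WT and 6.62, 7.55, 16.2 and 7.10 CPM with sulindac (0.19 ± 0.29). The largest mitotic value was that of Ube2c, at 49.0, 47.0, 31.5 and 43.5 CPM and 39.5, 46.6, 87.7 and 37.7 CPM (0.32 ± 0.27), and the smallest that of Cenpf, at 21.5, 35.0, 35.4 and 26.9 CPM (0.03 ± 0.21). Each of these 4 genes overlapped between the groups. Against untreated A mice sulindac gave no call among the members, and no call among all genes in edgeR (0%), where no member but 460 genes in all (2.62%) had an unadjusted p under 0.05 and DESeq2 called 5 genes and no member. The medians were -0.05 and 0.08. The log2 difference of Mcm2 was 0.03 ± 0.21 and that of Ccnb1 0.22 ± 0.24, and for Mcm2 a difference as large as that of BA tissue against WT lay within 2 SE. The S-phase values ran from Mcm4 (0.10 ± 0.22), at 33.9, 40.4, 44.4 and 27.8 CPM in untreated and 32.3, 35.9, 59.9 and 29.5 CPM in sulindac-treated mice, to Chek1 (-0.24 ± 0.33), at 5.41, 9.27, 9.03 and 6.33 CPM and 3.83, 7.07, 10.8 and 3.84 CPM. The mitotic values ran from Ccnb1 to Birc5 (-0.02 ± 0.25), the latter at 35.5, 37.4, 67.2 and 31.0 CPM in treated mice. None of these 4 genes was separated between the groups.

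BA and A mice were compared directly at day 30 for the part of the activated Braf allele. Of the members Tyms was lower and Kif23 higher in BA, where 21.7% of all genes tested were higher and 23.6% lower, but with the epithelial scaling, which moved the median of all genes to -0.96, all 39 were called lower. The share of all genes called lower under that scaling is not given here. In the main fit the medians were -0.08 over the S-phase and -0.02 over the mitotic members. Tyms stood at 43.9, 45.1, 34.3 and 28.3 CPM in A and 25.6, 28.0, 29.2, 22.6 and 27.8 CPM in BA tissue (log2 fold change -0.49 ± 0.14 (SE), adjusted p = 0.013), with A 4 within the BA range. Kif23 stood at 28.9, 27.4, 28.6 and 29.8 CPM in A and 32.4, 37.4, 30.24, 33.2 and 35.1 CPM in BA tissue (log2 fold change 0.24 ± 0.09 (SE), adjusted p = 0.041), without overlap. Mcm2 had 0.00 ± 0.12, Pcna -0.07 ± 0.10, Ccnb1 0.19 ± 0.14 and Mki67 -0.19 ± 0.09. The largest S-phase value was that of Ccne2, at 5.41, 9.21, 10.4 and 5.55 CPM in A and 7.15, 11.2, 8.28, 9.65 and 10.1 CPM in BA tissue (0.29 ± 0.23). The mitotic values ran from Cenpe, at 18.1, 20.1, 22.3 and 22.2 CPM and 23.6, 27.0, 23.7, 23.8 and 23.7 CPM (0.25 ± 0.10), to Nusap1, at 23.8, 31.3, 21.7 and 31.3 CPM and 19.4, 23.5, 19.1, 21.4 and 26.5 CPM (-0.28 ± 0.14). The 2 calls became 4 without A 3 or A 4, 1 without BA 1, 2, 4 or 5 and 0 without A 2. Among regulators Rb1 (0.96 ± 0.15), Lin54 (1.07 ± 0.13), which encodes the DNA-binding subunit of MuvB, Cdkn1c (0.98 ± 0.22) and Ccnd2 (0.61 ± 0.15) were higher in BA tissue, and Ccnd1 (-0.42 ± 0.12) was lower. Epithelial markers were higher for 8 of 10 and lower for 1, with sums of 12450.4 to 20598 CPM in A and 24157 to 27668 CPM in BA tissue, and 7 of 10 fibroblast markers were lower (1694 to 2089 and 1294 to 1618 CPM). Of 8 markers each, 4 of smooth muscle, 4 of T cells and 2 of myeloid cells were lower, and their part in the result was not tested.

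**Figure D5:**
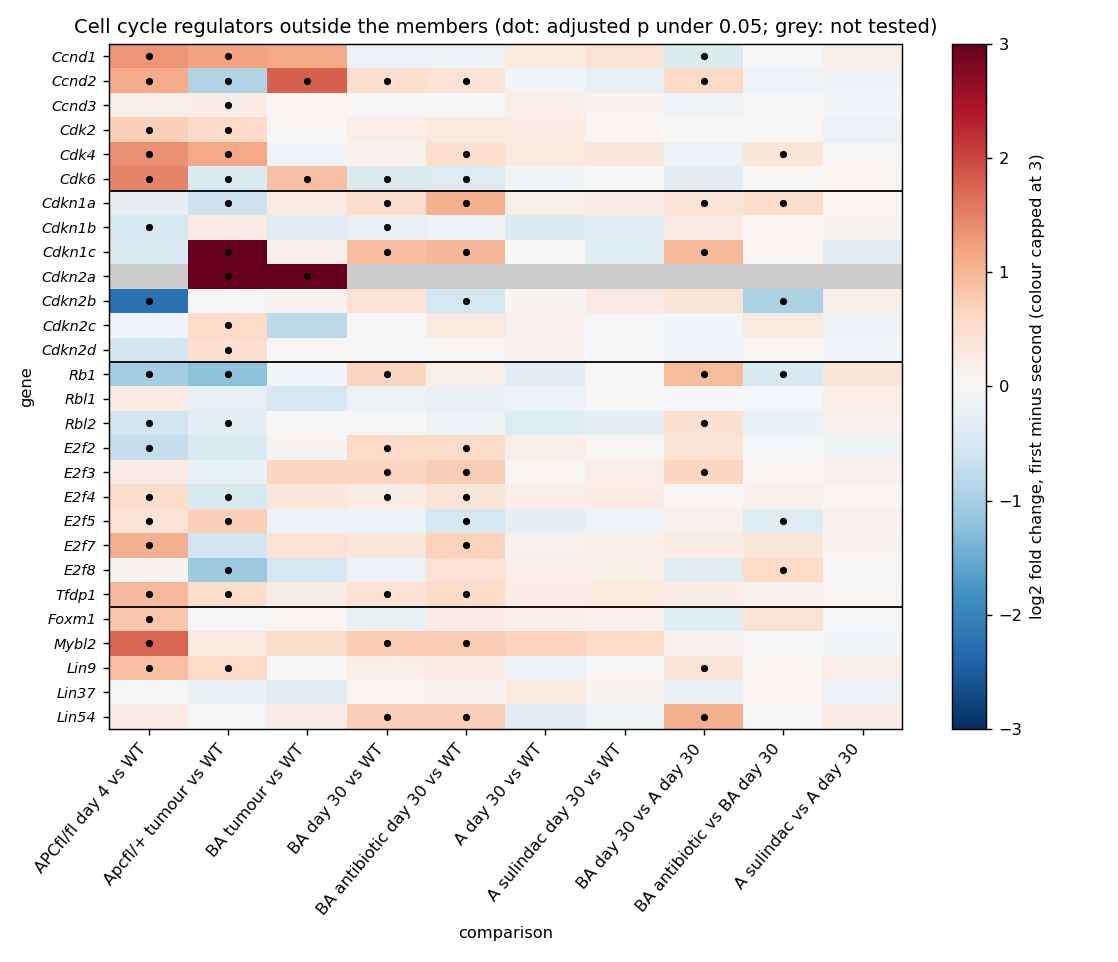
Log2 fold change of G1 cyclins and kinases, CDK inhibitors, pocket proteins and E2F genes and FoxM1 and B-Myb genes (rows) in each comparison (columns), first group minus second, with the colour scale as labelled and a mark where the adjusted p was under 0.05. Cdkn2a had 5.90 ± 0.66 in BA tumours and 5.23 ± 1.39 in Apcfl/+ tumours, and Cdkn2b -2.25 ± 0.25 in APCfl/fl tissue.

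Last, BA tumours were set against BA tissue at day 30, each relative to its WT. The tumour change was lower for 2 S-phase members, the helicase activator Cdc45 (-0.87 ± 0.27 (SE), adjusted p = 0.037) and Ccne2 (-1.13 ± 0.29 (SE), adjusted p = 0.013), and for no mitotic member, where 6.46% of all genes tested were called in this direction. It was higher for none, where 9.87% of all genes were. As a share of the 39 members, the 2 lower ones were close to that of all genes. The median difference was -0.63 over the S-phase and -0.32 over the mitotic members. Pcna had -0.64 ± 0.23 (SE), adjusted p = 0.067, and Mki67 -0.05 ± 0.33 (SE), adjusted p = 0.95. Without WT proximal colon 3 neither gene was called, without tumour 3 or WT proximal colon 1 there were 5, and without any 1 of tumour 4, BA 2, 4 or 5 or WT day 30 1, 3 or 4 there was 1.

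Across the comparisons with WT, the mean of the S-phase members lay below that of the mitotic members in every group. The group means of S-phase minus mitotic lay between -0.92 and -0.48 log2 units in the 7 colon groups and between -0.44 and -0.05 in the 4 small intestine groups. By library, S-phase minus mitotic means ran from -0.26 to 0.16 log2 units in APCfl/fl, from -0.75 to -0.02 in WT day 4, from -0.48 to -0.40 in Apcfl/+ tumours and from -0.46 to -0.28 in WT small intestine. They ran from -1.04 to -0.77 in BA tumours, from -0.97 to -0.75 in WT proximal colon, from -1.11 to -0.32 in WT day 30 and from -0.60 to -0.38 in BA day 30. In a difference within a library the scaling factor cancels, apart from the prior count. The BA tumours and their WT overlapped in it, and so did Apcfl/+ tumours and theirs.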

How the data were processed

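RNA-seq was made from 53 whole-tissue libraries of mouse small intestine and proximal colon. The authors trimmed paired reads of 36 cycles with Trim Galore 0.6.4 after FastQC 0.11.8, aligned them to GRCm38 with HISAT2 2.1.0 and counted them on genes with featureCounts 1.6.4, per the processing notes and the methods. They deposited raw counts, not normalised, for 55421 Ensembl genes. Settings for strand and for reads that fit several places are not given in the sources used here, and the kit named in the labels does not keep strand. Besides Gins2, exon bases shared with a gene on the opposite strand made up 29.3% in Kif20a, 22.8% in Ube2c, 17.4% in Ccne2 and 12.5% in Ccna2. Words of 36 bases shared with other genes made up 30.3% in Mcm7, 26.4% in Ccnb1 and 22.1% in Pcna, among others. The counts of these members are uncertain to that extent. GENCODE M21 named 55154 rows.

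Each comparison was fitted alone on its 2 groups in edgeR 4.0.16 (quasi-likelihood, two-sided). Low counts were removed by filterByExpr, TMM set the scale of each library, and the Benjamini-Hochberg adjustment ran over all genes tested at a threshold of 0.05. Differences between comparisons used an interaction term in edgeR. SE are those of the fit. CPM shown are TMM-scaled over all libraries, RPKM use the union of exons, and list means average log2 CPM (prior count 2) and are given without a test. The script was tested on simulated counts. Levels and folds compare whole tissue, and deeper libraries give more precise values, since 3 counts equal 5.80 CPM in the shallowest library and 0.0914 CPM in the deepest. Alternatives were RLE scaling, DESeq2 1.42.0, no low-count filter, scaling to epithelial markers, a replicate block, leaving out each library, a term for Gm13394 at day 4 and 1 fit of the 5 day 30 groups.

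The members and all other lists were chosen with earlier results of these data known. Values per library are given for Mki67, Ccnb1, Mcm2 and Pcna and for the S-phase and mitotic members that changed most in each direction in a comparison. From other lists the genes with the largest and smallest change and up to 5 more could be named. For 1 gene of these lists no values are reported here. Promoters are RefSeq sequences of GRCm38.p6. The scripts ran in R 4.3.3 and Python 3.11.15 with pandas 2.3.3.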

Additional observations from a re-analysis of the deposited data

Results flagged for a closer look

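Dixon's test was run on each member and on the list means in each group of 4 to 10 libraries. It marked a library as far from the rest of its group in 33 of 378 tests (8.73%), in 12 libraries, where chance alone marks about 1 in 20 groups. APCfl/fl 8 was the highest library for Tyms at 112 CPM against 35.0 to 66.2, Gins2 at 53.3 CPM against 9.56 to 28.7, Birc5 at 183 CPM against 46.2 to 99.9 and Ube2c at 242 CPM against 47.8 to 115 in the other libraries. APCfl/fl 1 was the lowest library for E2f1 at 12.7 CPM against 21.3 to 29.3 and a mean over the mitotic members of 5.43 log2 CPM against 6.02 to 6.48 in the other libraries. BA tumour 3 was the highest library for Pcna at 83.3 CPM against 55.7 to 60.2 in the other libraries. Untreated BA day 30 2 was the highest library for Top2a at 139 CPM against 109.8 to 115 and Cenpe at 27.0 CPM against 23.6 to 23.8 in the other libraries. Antibiotic-treated BA day 30 3 was the lowest library for Tyms at 23.6 CPM against 33.9 to 36.6 and Aurka at 17.95 CPM against 25.5 to 28.2 in the other libraries. Sulindac-treated A 3 was the highest library for Mcm5 at 88.6 CPM against 36.3 to 39.8, Mcm6 at 130.1 CPM against 59.1 to 68.6, Mcm7 at 88.6 CPM against 41.3 to 46.2, Pcna at 103 CPM against 55.3 to 62.3, Rrm1 at 109 CPM against 53.0 to 61.9, Tyms at 61.0 CPM against 26.1 to 28.8, Gins2 at 16.2 CPM against 6.62 to 7.55, Cdc45 at 19.6 CPM against 8.86 to 9.78 and Ccne1 at 16.5 CPM against 6.35 to 7.82 in the other libraries. Untreated A 4 was the lowest library for Mcm3 at 28.3 CPM against 46.5 to 47.6 and a difference of S-phase mean minus mitotic mean of -0.91 log2 CPM against -0.37 to -0.28 in the other libraries. WT day 30 4 was the lowest library for Mcm2 at 22.8 CPM against 28.5 to 29.3 and Mcm4 at 24.8 CPM against 31.6 to 32.7 in the other libraries. WT day 30 2 was the highest library for Cdc45 at 10.9 CPM against 8.99 to 9.20 in the other libraries. WT day 30 3 was the lowest library for Ccnb2 at 25.5 CPM against 40.8 to 42.7, Bub1b at 22.4 CPM against 30.9 to 32.3, Cdc20 at 19.2 CPM against 32.1 to 34.2 and Birc5 at 26.5 CPM against 39.2 to 40.9 in the other libraries. Apcfl/+ tumour 4 was the highest library for E2f1 at 8.09 CPM against 5.70 to 6.35 in the other libraries. Apcfl/+ tumour 2 was the lowest library for Mki67 at 162 CPM against 218 to 227, Top2a at 214 CPM against 351 to 405 and Kif23 at 25.8 CPM against 40.8 to 45.7 in the other libraries.

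By an interaction term in edgeR with an adjusted p under 0.05, the change in APCfl/fl tissue was larger than that in Apcfl/+ tumours for Mcm4 (0.97), Mcm5 (1.01), Mcm7 (0.88), Rrm1 (0.90), Tyms (0.87), Cdc45 (1.10), E2f1 (1.17), Chek1 (1.01), Ccne1 (1.14), Ccne2 (0.81), Mki67 (1.36), Top2a (0.83), Ccna2 (0.78), Cenpe (1.25) and Cenpf (1.07), where the value is the log2 difference. The change in BA tumours lay below that in Apcfl/+ tumours for Mcm7 (-0.94), Pcna (-1.37), Tyms (-1.13), Gins2 (-1.20), Ccnb2 (-1.48), Cdk1 (-1.32), Aurkb (-1.02), Bub1b (-0.89), Cdc20 (-1.19), Nusap1 (-1.43) and Tpx2 (-1.05). The change in BA tumours lay below that in BA tissue at day 30 for Cdc45 (-0.87) and Ccne2 (-1.13). No cause of these differences was tested.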

How the results depend on the processing

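Counts of called members were recomputed for 10 comparisons and 3 differences between comparisons. Of 70 alternatives other than leaving out 1 library, 50 stayed within 1.5 times the count and 20 did not. Scaling to 10 epithelial markers used their summed counts. In the main fits their log2 fold changes ran from 0.08 to 2.72 in BA tissue at day 30. With antibiotics they ran from -0.24 to 2.51, in BA against A mice from -0.32 to 2.31 and in Apcfl/+ tumours from -1.34 to 2.65. This scaling moved the median of all genes by -1.02 in BA tissue at day 30, -0.97 with antibiotics, -0.96 in BA against A mice, -0.41 in Apcfl/+ tumours and 0.28 in APCfl/fl tissue. It gave 1 call in Apcfl/+ tumours, 0 in BA tumours, 39 in BA tissue at day 30, 39 in BA against A mice and 6 in antibiotic-treated against untreated BA mice. It turned the sign of 32 called values. In BA tissue at day 30 they became -0.59 for Mcm3, -0.48 for Ccne2, -0.75 for Mcm7, -0.64 for Mcm2, -0.52 for Ccne1, -0.69 for Cdt1, -0.43 for Cdc6, -0.55 for Rrm2 and -0.60 for Mcm4. In antibiotic-treated BA tissue against WT they became -0.16 for Mcm3, -0.56 for Mcm6, -0.42 for Bub1, -0.58 for Pcna, -0.52 for E2f1, -0.46 for Ube2c, -0.44 for Ccna2, -0.24 for Ccne2, -0.45 for Cdc20, -0.55 for Mcm7, -0.34 for Mcm2, -0.086 for Ccne1, -0.49 for Rrm1, -0.43 for Cdk1, -0.32 for Mcm5, -0.34 for Cdt1, -0.42 for Chek1, -0.16 for Cdc6, -0.47 for Birc5, -0.090 for Rrm2, -0.22 for Mcm4 and -0.46 for Cdc45. In BA against A mice they became -0.67 for Kif23. A further 49 values that were not called also changed sign. DESeq2 called 2 members in BA tumours, 16 in antibiotic-treated against untreated BA mice, 24 for APCfl/fl minus Apcfl/+ and 5 for BA tumour minus BA day 30. Without the low-count filter there were 2 calls in BA tumours, 1 in BA against A mice, 6 in antibiotic-treated against untreated BA mice and 6 for APCfl/fl minus Apcfl/+. With the 5 day 30 groups in 1 fit there were 0 calls in BA tissue, 1 in BA against A mice and 0 in antibiotic-treated against untreated BA mice. RLE scaling moved the median of all genes of the difference APCfl/fl minus Apcfl/+ to 0.16. The cause of these moves was not tested.

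A fit with the replicate number as a block gave 3 calls in Apcfl/+ tumours, 0 in BA tumours, 1 in BA against A mice and 2 in antibiotic-treated against untreated BA mice. The numbers were not taken to pair libraries, because in no comparison did every same-numbered pair correlate above 0.1 (range -0.44 to 0.23), nor did every library correlate best with its own number. The block and the epithelial scaling were not run for the differences between comparisons.

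Leaving out each library in turn gave 147 counts, of which 97 stayed within 1.5 times. Calls ranged from 39 to 39 in APCfl/fl tissue, 12 to 29 in Apcfl/+ tumours, 0 to 1 in BA tumours, 4 to 13 in BA tissue at day 30, 13 to 30 with antibiotics, 0 to 4 in BA against A mice and 2 to 31 in antibiotic-treated against untreated BA mice. They were 0 in each refit of the 3 other comparisons of A mice. For the differences they ranged from 4 to 22, from 5 to 24 and from 0 to 5. Depth limits APCfl/fl 1 most, where 3 counts equal 5.80 CPM.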

Other observations

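The promoters of the further lists were searched for the same words as those of the members. An E2F core lay in a promoter of 11 of 15 further replication genes (73.3%) and of 3 of 21 further mitosis genes. A CHR word lay in a promoter of 3 of 15 and of 18 of 21 (85.7%) of them.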
